A study of Mus musculus with 24 samples.

Results

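The mitosis genes are a list of 48 genes whose products carry a cell through mitosis, from the cyclins that start it to the proteins that cut the daughter cells apart. A probe was counted as a member if the gene name printed for it in the array files was 1 of the 48, which took in 67 of the 55681 gene probes. Of the 48 genes, 44 were above background often enough to be tested, among 15472 genes tested in all. Adult liver is largely quiescent, and its cells re-enter the cycle when tissue is lost or damaged. Genes of the G2 and M phases are switched on together late in the cycle, in part through the transcription factor Foxm1 and the complex that holds Mybl2 (B-Myb), and their messages are nearly absent from resting cells. Their products are sorted here by role: cyclins and kinases that drive entry, the checkpoint that holds anaphase back, and the complex that releases the sister chromatids. Further roles are the kinetochore, the spindle motors, the cleavage machinery and condensin.

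The livers came from male mice of the inbred strains WSB/EiJ, C3H/HeJ and A/J (3 strains), and their RNA was read on 24 Agilent arrays of 1 colour, 4 for each strain and diet. Mice went onto their diets at 8 weeks of age and were 20 weeks old when livers were taken 12 weeks later. The deficient diet held 0.17% methionine and no choline or folic acid, whereas the control diet held choline bitartrate at 0.3%, methionine at 0.4% and folic acid at 2 mg/kg. Iron was added to both. The series asks how the strains differ in the liver injury that such a methyl-donor-deficient diet brings. The 6 groups are therefore each strain on the control diet and each on the deficient diet, with no genetic modification named. Replicates are numbered in the labels without a statement that they are different mice, so p-values measure only the spread between these samples.

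The signal of a probe is given as a scaled signal, for which the array's 75th percentile was set to 100, and the 4 values of a group always follow array numbers 1 to 4. A level can be compared between arrays for 1 probe, not between probes. A diet effect is the deficient over control ratio in log2, given ± its standard error from limma (n = 4 arrays per group), and a gene was called when its adjusted p was under 0.05 over all genes tested. Between 43% and 54.7% of gene probes were well above background on each array, and no gene probe was saturated on any array (0 spots). All 8 hepatocyte markers (Alb, Apoa1, Ttr, Serpina1a, Apob, Hnf4a, Tat and Cps1) were above background on every array. In whole liver, fewer cells of a type and less RNA per cell cannot be told apart. Each position in parentheses is where the probe lies on NCBI37 (mm9), the build of the array files.

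In WSB/EiJ liver 42 of the 44 tested mitosis genes rose on the deficient diet, in C3H/HeJ 41 and in A/J 13, and 0 fell in any strain. Among all genes tested, 23.6% rose in WSB/EiJ, 17.3% in C3H/HeJ and 5.73% in A/J, and 50.1%, 30.8% and 4.71% fell. The median diet effect of the 44 members was 3.46 in WSB/EiJ, 2.21 in C3H/HeJ and 0.60 in A/J, beside medians of -0.34, -0.16 and -0.07 over all genes. With the normexp background correction in place of Agilent's processed signal these medians were 1.83, 0.952 and 0.257. These counts are not independent of the background filter. Of the 44 members, 15 were tested only because they were above background in a deficient group, which favours a rise in the strain of that group. The 22 members above background on all 24 arrays are free of that, and of these 20 rose in WSB/EiJ, 20 in C3H/HeJ and 11 in A/J, with 0 falls. Their median effects were 2.74, 1.57 and 0.59, and among the 12392 genes of any kind above background on all arrays 17.7%, 13.2% and 5.13% rose. Bub3 and Mybl2 were the members that passed in no strain, and Kif23 passed in WSB/EiJ only.

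The mean of the 44 members on each array, in log2 relative to the array's 75th percentile, was -2.31 ± 0.41 (SD, n = 4) on A/J control arrays and -1.71 ± 0.22 on A/J deficient arrays. In C3H/HeJ the mean went from -2.78 ± 0.18 to -0.77 ± 0.14, and in WSB/EiJ from -3.01 ± 0.21 to 0.30 ± 0.13. The control and deficient arrays of C3H/HeJ and of WSB/EiJ did not overlap, whereas in A/J control array 4 (-1.78) lay above deficient arrays 4 (-1.97) and 2 (-1.79). Over the 22 members above background on all arrays the A/J diets did not overlap, with control arrays up to -0.15 and deficient arrays from -0.061. The A/J arrays moved as a block of genes: 34 of the 44 members had their highest control value on control array 4 and 28 their lowest on control array 1. On the deficient arrays of A/J, 29 had their highest value on array 1 and 27 their lowest on array 4. The count of calls in A/J followed those arrays, with 3 members called without control array 1, 24 without control array 4, 6 without deficient array 1 and 6 without deficient array 3. Of the 13 calls, only those of Spc25, Foxm1 and Ccnb2 survived the removal of any single array. With C3H/HeJ 41 to 42 members and with WSB/EiJ 42 to 43 were called whichever array was left out. Single arrays also held many of the highest values in those strains. C3H/HeJ deficient array 2 was highest in its group for 27 members. C3H/HeJ control array 4, WSB/EiJ control array 2 and WSB/EiJ deficient array 2 were highest for 24 each.

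**Figure D1:**
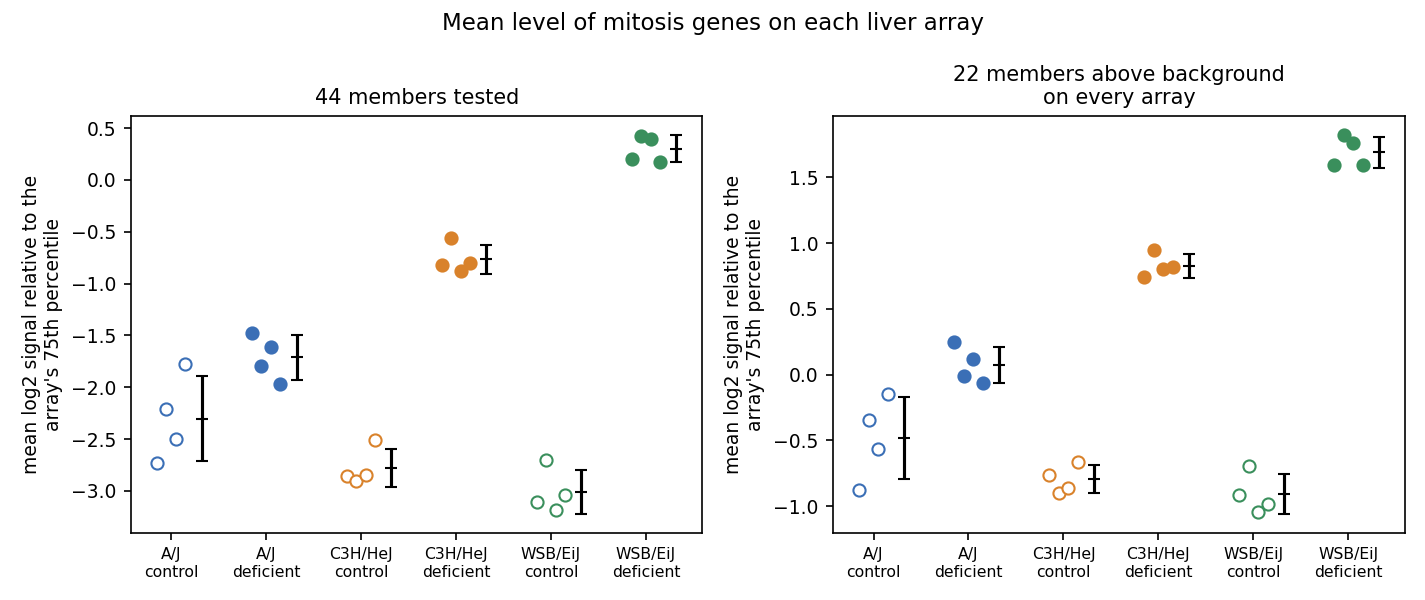
Mean log2 signal of the mitosis genes on each array, relative to the array's 75th percentile, for the 44 tested members (left) and the 22 above background on every array (right); open circles are control-diet arrays, filled circles deficient-diet arrays, and the bar is the group's mean ± SD (n = 4). The WSB/EiJ deficient arrays lie highest (0.30 ± 0.13 for 44 members) and the WSB/EiJ control group has the lowest mean (-3.01 ± 0.21); the A/J groups overlap for the 44 members and not for the 22, where the highest control array is at -0.15 and the lowest deficient one at -0.061.

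Every slide carried arrays of both diets of every strain, so each diet effect could also be taken within a slide. On slides 1, 2 and 3 the median difference over the 44 members was 1.07, 0.55 and 0.56 in A/J, 1.81, 2.27 and 2.45 in C3H/HeJ, and 3.33, 3.26 and 3.78 in WSB/EiJ. Over all genes the medians on slides 1, 2 and 3 were -0.0804, -0.0768 and -0.068 in A/J and -0.0892, -0.228 and -0.233 in C3H/HeJ. In WSB/EiJ they were -0.353, -0.262 and -0.35. The members that were higher on the deficient diet within a slide numbered 39 to 42 in A/J, 42 to 43 in C3H/HeJ and 43 to 44 in WSB/EiJ. All 4 deficient arrays lay above all 4 control arrays for 9 members in A/J, against 8.2% of all genes, for 42 in C3H/HeJ, against 13.9%, and for 42 in WSB/EiJ, against 22.4%. The reverse held for 0 members in each strain, against 9.33%, 21.1% and 47.6% of all genes in A/J, C3H/HeJ and WSB/EiJ. The medians and counts of this paragraph include the 15 members tested only through a deficient group. That filter favours a rise, so these values are not independent of it, and they were not taken over the 22 members alone.

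**Figure D2:**
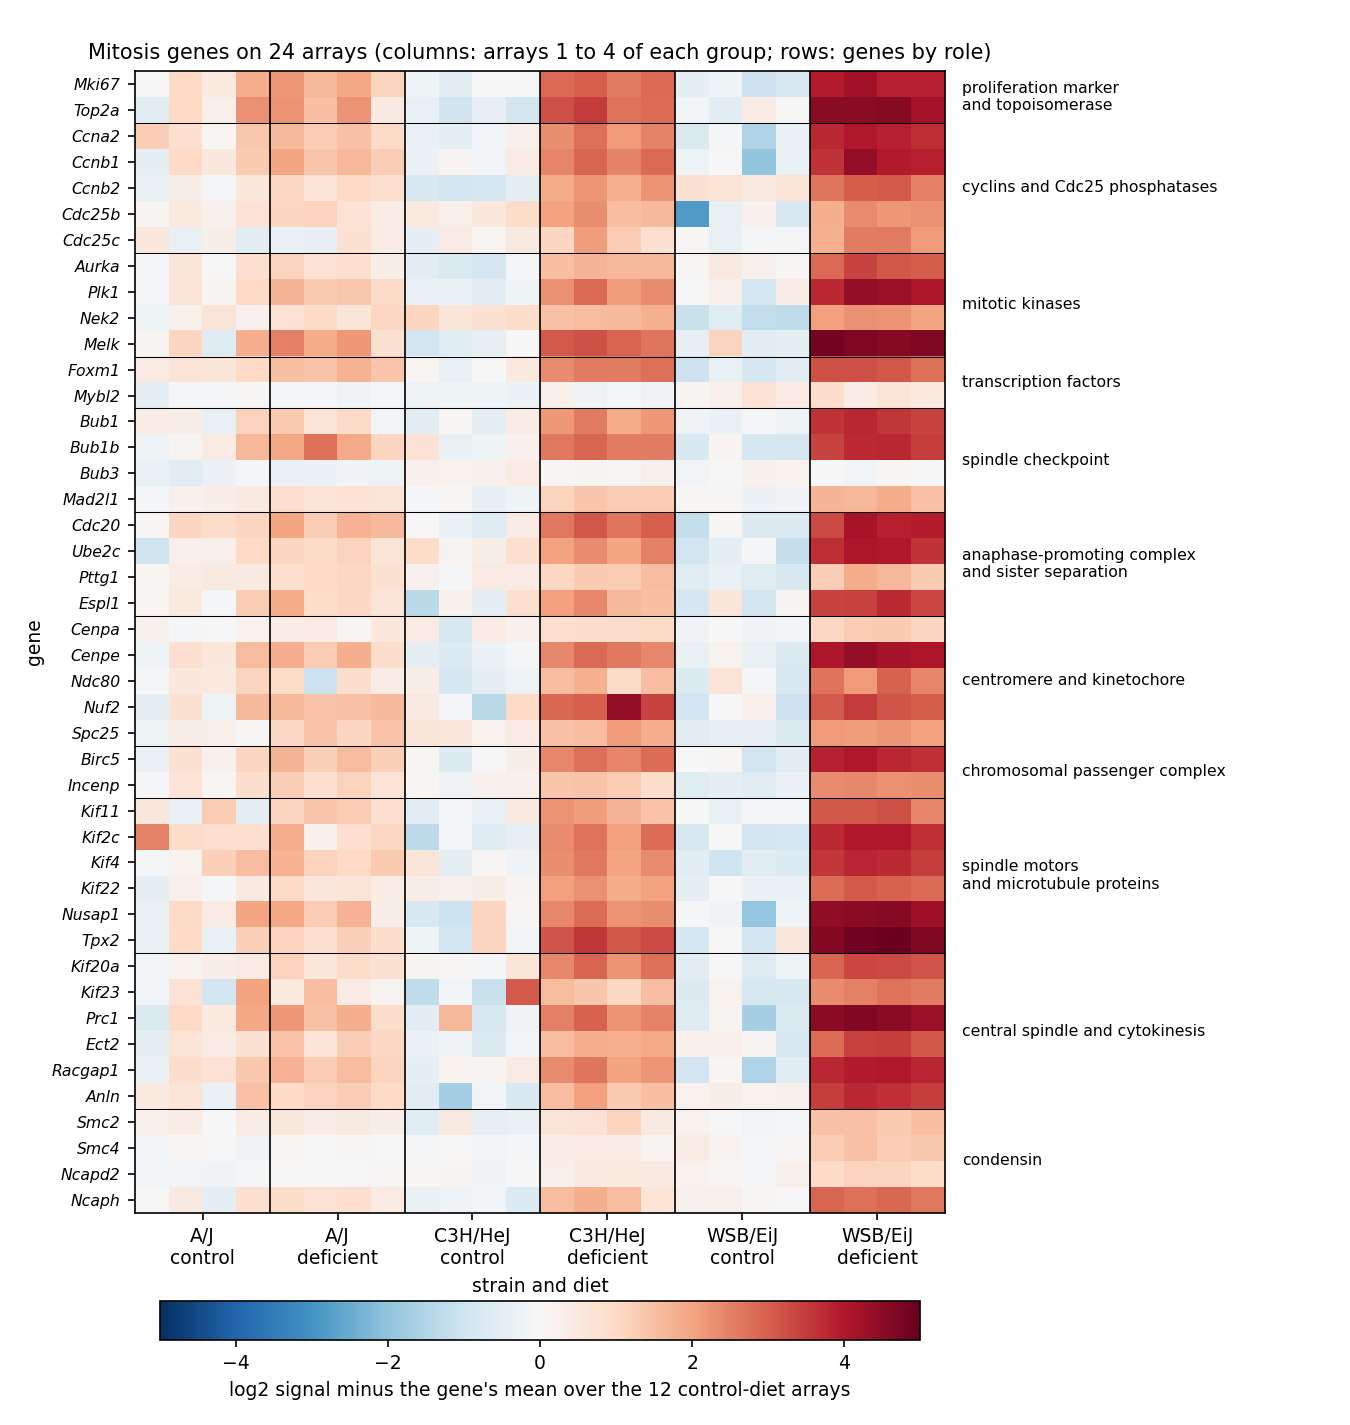
Log2 signal of each tested mitosis gene on each array minus the gene's mean over the 12 control-diet arrays (blue lower, red higher); columns are arrays 1 to 4 of each group and rows are genes by role. The WSB/EiJ deficient columns are red in nearly every row, the rows of Bub3 and Mybl2 stay pale, and A/J control array 4 is redder than the other A/J control arrays in most rows.

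Genes of this kind are known for 2 short promoter elements, the CCAAT box bound by NF-Y and TTTGAA, the core of the cell cycle genes homology region. RefSeq promoters (build GRCm38.p6, the 250 bases before the start) were matched by symbol for 40 of the 48 members, as 43 promoters, and searched on both strands. CCAAT was found in 32 of the 43 (74.4%), beside 33.8% of 32851 promoters of all genes, and TTTGAA in 17 (39.5%), beside 16.0%. Both elements were in 16 (37.2%), beside 5.55%, no 2 matches overlapped (0 cases), and 10 members held neither. The promoters below are those of 4 genes that rose in C3H/HeJ and WSB/EiJ and of the pair that passed in no strain, on the strand of the gene, 5′ to 3′, with each match to CCAAT or to TTTGAA in capitals, including matches to their reverse complements.
Top2a, chr11:99024190-99024439, minus strand: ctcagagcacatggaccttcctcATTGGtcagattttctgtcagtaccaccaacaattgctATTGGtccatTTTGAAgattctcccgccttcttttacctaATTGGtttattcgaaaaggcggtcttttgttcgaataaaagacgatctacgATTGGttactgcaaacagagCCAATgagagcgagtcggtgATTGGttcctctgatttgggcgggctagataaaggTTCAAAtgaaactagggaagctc
Ccnb1, chr13:100786487-100786736, minus strand: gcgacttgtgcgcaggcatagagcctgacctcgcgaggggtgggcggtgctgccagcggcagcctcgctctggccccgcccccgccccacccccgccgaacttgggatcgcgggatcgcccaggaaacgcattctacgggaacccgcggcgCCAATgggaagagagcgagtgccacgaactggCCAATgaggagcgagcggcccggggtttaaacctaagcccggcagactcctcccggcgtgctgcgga
Ccnb2, chr9:70421555-70421804, minus strand: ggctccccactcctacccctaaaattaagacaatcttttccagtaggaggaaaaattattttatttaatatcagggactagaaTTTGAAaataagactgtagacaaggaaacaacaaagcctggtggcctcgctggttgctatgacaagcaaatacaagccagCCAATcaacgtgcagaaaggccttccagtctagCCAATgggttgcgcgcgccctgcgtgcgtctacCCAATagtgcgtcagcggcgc
Cdc20, chr4:118437344-118437593, minus strand: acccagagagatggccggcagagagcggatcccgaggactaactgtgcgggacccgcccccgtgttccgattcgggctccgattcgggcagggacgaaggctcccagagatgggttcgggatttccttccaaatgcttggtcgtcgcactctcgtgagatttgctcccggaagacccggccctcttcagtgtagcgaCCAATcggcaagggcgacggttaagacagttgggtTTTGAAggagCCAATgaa
Bub3, chr7:131560120-131560369, plus strand: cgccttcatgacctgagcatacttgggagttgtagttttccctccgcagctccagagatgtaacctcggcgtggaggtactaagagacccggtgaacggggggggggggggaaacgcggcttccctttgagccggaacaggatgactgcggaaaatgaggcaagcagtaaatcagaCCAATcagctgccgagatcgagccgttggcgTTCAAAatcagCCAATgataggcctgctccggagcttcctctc
Mybl2, chr2:163054385-163054634, plus strand: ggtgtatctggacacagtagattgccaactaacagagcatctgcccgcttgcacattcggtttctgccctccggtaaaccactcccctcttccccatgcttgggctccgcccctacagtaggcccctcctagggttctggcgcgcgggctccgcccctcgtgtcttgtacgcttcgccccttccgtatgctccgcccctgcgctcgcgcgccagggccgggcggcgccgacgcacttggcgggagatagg
Top2a holds 6 CCAAT and 2 TTTGAA matches, Ccnb1 2 and 0, Ccnb2 3 and 1, Cdc20 2 and 1, Bub3 2 and 1, and Mybl2 0 and 0. A match is a stretch of letters and not a measured site. The Bub3 promoter carries both elements although its message did not pass in any strain.

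Both general markers of dividing cells rose in C3H/HeJ and WSB/EiJ. Mki67 (chromosome 7, 142881591 to 142881650) encodes the nuclear antigen by which pathologists count cycling cells. Mki67 read 34.5, 66.6, 47.5 and 119.8 on the A/J control arrays and 152, 105, 130.0 and 73.5 on the A/J deficient arrays. In C3H/HeJ, Mki67 read 28.9, 23.3, 33.3 and 33.7 on the control diet and 238, 264, 201 and 242 on the deficient one. In WSB/EiJ, Mki67 read 23.9, 28.7, 16.2 and 19.1 and 514, 619, 498 and 497, respectively. The diets were far apart in C3H/HeJ and WSB/EiJ and overlapped in A/J, where control array 4 lay within the range of the deficient arrays. The effects were 4.63 ± 0.28, adjusted p = 6.63e-11 in WSB/EiJ (24.7-fold), 3.00 ± 0.28, adjusted p = 1.65e-07 in C3H/HeJ (7.97-fold) and 0.89 ± 0.28, adjusted p = 0.0475 in A/J (1.85-fold). The A/J call was lost without any of 18 single arrays (0.62 to 0.94, adjusted p = 0.0504 to 0.164).

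Top2a (chromosome 11, 98855522 to 98855581), the topoisomerase that untangles sister DNA before it is parted, was above background on 2 of 4 A/J control arrays and on no control array of the other strains (0 of 4 each). Top2a read 2.69, 7.86, 4.62 and 19 and 18.8, 11.1, 18.5 and 5.34 in A/J, control then deficient. In C3H/HeJ, Top2a read 3.08, 1.98, 2.92 and 2.07 and 36.4, 44, 25.8 and 27.5. In WSB/EiJ, Top2a read 3.59, 2.73, 5.09 and 3.95 and 89.9, 90.2, 91.5 and 70.5. Each deficient array of C3H/HeJ and WSB/EiJ was above every control array of its strain, and the A/J diets overlapped. Where no control array of a group was well above background the change has only a lower bound, taken against the lowest signals that were above background on those arrays. Where some control arrays were, the fitted effect is given, for members with their number beside the gene or at the end of this paragraph. By that measure Top2a was at least 18.3-fold higher in WSB/EiJ (adjusted p = 2.68e-08) and at least 6.05-fold higher in C3H/HeJ (adjusted p = 2.74e-06). The A/J value was 0.87 ± 0.44, adjusted p = 0.211. For members whose number is not given beside the gene, the WSB/EiJ control arrays above background were 2 of 4 for Ube2c. They were 3 of 4 each for Ccna2, Ccnb1 and Racgap1. In A/J they were 1 of 4 each for Melk, Espl1, Kif4 and Tpx2, and 3 of 4 each for Ccnb1, Ube2c, Nusap1 and Prc1. In C3H/HeJ they were 1 of 4 for Kif23.

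All 5 cyclins and Cdc25 phosphatases were called higher in C3H/HeJ and in WSB/EiJ, and Ccnb2 alone passed in A/J. The C3H/HeJ call of Cdc25c rests on signals near background, with 1 of 4 deficient arrays above it, and gives no fold. Ccna2 (chromosome 3, 36463978 to 36464037), cyclin A2 of S and G2 phase, read 34.1, 25.6, 15.5 and 37.5 on A/J control arrays and 44.9, 34.9, 40.6 and 28.1 on deficient ones. In C3H/HeJ, Ccna2 read 11.6, 10.3, 13.2 and 17.3 and 72.6, 97.8, 64 and 82.8. In WSB/EiJ, Ccna2 read 8.79, 13.7, 5.13 and 11.6 and 198, 234, 216 and 189. Readings were highest on the WSB/EiJ deficient arrays, the control arrays of WSB/EiJ and C3H/HeJ overlapped each other, and the diets did not overlap outside A/J. Ccna2 rose by 4.50 ± 0.27 in WSB/EiJ (adjusted p = 6.87e-11) and by 2.61 ± 0.27 in C3H/HeJ (adjusted p = 6.91e-07), and its A/J value was 0.46 ± 0.27, adjusted p = 0.295.

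Ccnb1 (chromosome 13, 101548722 to 101548781), cyclin B1, the partner of Cdk1 at mitotic entry, read 7.75, 21.1, 14.9 and 25.7 on A/J control arrays and 40.9, 27.2, 33 and 24.8 on deficient ones. In C3H/HeJ, Ccnb1 read 8.66, 11.6, 9.65 and 13.9 and 56.4, 78.9, 59.3 and 73.7. In WSB/EiJ, Ccnb1 read 8.9, 10.4, 2.71 and 8.34 and 128, 221, 165 and 157. WSB/EiJ control array 3 was the lowest of all 24, and the A/J diets overlapped through 1 array each. Ccnb1 rose by 4.61 ± 0.36 (adjusted p = 1.5e-09) and 2.62 ± 0.36 (adjusted p = 1.48e-05) in WSB/EiJ and C3H/HeJ and was at 0.97 ± 0.36, adjusted p = 0.0919 in A/J. Its 3 probes differed by 1.37 in the C3H/HeJ effect, the widest spread of any member among probes that passed the background filter.

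Ccnb2 (chromosome 9, 70255671 to 70255730), cyclin B2, followed another order. Ccnb2 read 51.5, 81.5, 60.8 and 94.5 and 134, 106, 131 and 112 in A/J, control then deficient. In C3H/HeJ, Ccnb2 read 38.8, 34, 35.8 and 47.9 and 236, 299, 221 and 308. In WSB/EiJ, Ccnb2 read 109.6, 105, 88.8 and 105 and 416, 536, 539 and 374. The diets did not overlap in any strain, and the WSB/EiJ control arrays, unlike those of most members, lay above the C3H/HeJ control arrays. Ccnb2 rose by 2.76 ± 0.17 in C3H/HeJ (adjusted p = 1.18e-09), 2.18 ± 0.17 in WSB/EiJ (adjusted p = 2.05e-09) and 0.78 ± 0.17 in A/J (adjusted p = 0.00711). Cdc25b and Cdc25c are phosphatases that activate Cdk1. Cdc25b rose by 3.10 ± 0.41 in WSB/EiJ, where 2 of 4 control arrays were above background, and by 1.32 ± 0.41 in C3H/HeJ, and was at 0.43 ± 0.41, adjusted p = 0.524 in A/J. Cdc25c was above background on all 4 WSB/EiJ deficient arrays, on 1 C3H/HeJ deficient array and on 0 of the other arrays, which gives at least 1.43-fold in WSB/EiJ (adjusted p = 1.05e-06) and no fold elsewhere.

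All 4 mitotic kinases tested rose in C3H/HeJ and WSB/EiJ, and Plk1 and Nek2 passed in A/J. Aurka (chromosome 2, 172181726 to 172181785), Aurora A, the kinase of the spindle poles, read 32, 51.3, 34.6 and 60.1 and 73.4, 55.4, 60.4 and 41.9 in A/J. In C3H/HeJ, Aurka read 23, 20.5, 19.1 and 32 and 95.2, 109, 106 and 106. In WSB/EiJ, Aurka read 35.6, 45.8, 39.1 and 35.5 and 239.6, 351, 294 and 272.6. The lowest deficient reading of C3H/HeJ was above the highest control reading, likewise in WSB/EiJ, and the A/J groups overlapped. Aurka rose by 2.88 ± 0.20 in WSB/EiJ (adjusted p = 3.21e-10) and 2.17 ± 0.20 in C3H/HeJ (adjusted p = 1.35e-07), against 0.40 ± 0.20, adjusted p = 0.205 in A/J.

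Plk1 (chromosome 7, 129313220 to 129313279), polo-like kinase, which acts from mitotic entry to cytokinesis, read 13.9, 22.7, 15.6 and 28.7 and 47.2, 35.7, 36.5 and 28 in A/J. In C3H/HeJ, Plk1 read 11.1, 11.4, 9.78 and 12.3 and 69.8, 102, 60.8 and 73.4. In WSB/EiJ, Plk1 read 14.2, 17.2, 7.83 and 18.7 and 198, 302, 289.5 and 234. A/J control array 4 and deficient array 4 were nearly equal, and the other strains showed no overlap. The effects were 4.20 ± 0.25, adjusted p = 6.62e-11 in WSB/EiJ, 2.75 ± 0.25, adjusted p = 1.39e-07 in C3H/HeJ and 0.90 ± 0.25, adjusted p = 0.0274 in A/J, where the call was lost without any of 5 single A/J arrays, control 1 or 3 or deficient 1, 2 or 3 (adjusted p = 0.0535 to 0.106).

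Nek2 (chromosome 1, 193656343 to 193656402), which parts the centrosomes, read 22.1, 30.7, 40.7 and 30.1 and 43, 49.4, 39.5 and 52.8 in A/J. In C3H/HeJ, Nek2 read 54.1, 39.2, 43.3 and 48.4 and 71.4, 77.8, 79.6 and 87.2. In WSB/EiJ, Nek2 read 11.8, 16.7, 10.9 and 10.67 and 105, 125, 123 and 101. The WSB/EiJ control arrays were below all other arrays, so that the step between diets was widest in that strain. Nek2 rose by 3.20 ± 0.16 in WSB/EiJ (adjusted p = 8.38e-12), 0.78 ± 0.16 in C3H/HeJ (adjusted p = 0.000883) and 0.60 ± 0.16 in A/J (adjusted p = 0.023). The A/J call of Nek2 was lost without A/J control array 1 or deficient array 2 (adjusted p = 0.0601 to 0.0904).

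Melk (chromosome 4, 44377041 to 44377100), maternal embryonic leucine zipper kinase, read 2.19, 4.19, 1.26 and 6.98 and 11.5, 7.26, 9.09 and 3.43 in A/J. In C3H/HeJ, Melk read 1.04, 1.3, 1.49 and 1.98 and 16.7, 18, 15.2 and 12.8. In WSB/EiJ, Melk read 1.49, 4.29, 1.38 and 1.41 and 54.4, 51.1, 47.3 and 50.6. No control array of C3H/HeJ or WSB/EiJ was above background (0 of 4 each), all deficient arrays of these strains were, and the A/J diets overlapped. Melk was at least 11.2-fold higher in WSB/EiJ (adjusted p = 1.28e-08) and at least 2.88-fold higher in C3H/HeJ (adjusted p = 6.36e-06), and was at 1.25 ± 0.44, adjusted p = 0.0727 in A/J.

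The 2 transcription factors of the list parted ways. Foxm1 (chromosome 6, 128324783 to 128324842), an activator of G2 and M phase genes, read 8.91, 11, 10.2 and 13.5 on A/J control arrays and 19.1, 18.3, 22.6 and 17.8 on deficient ones. In C3H/HeJ, Foxm1 read 7.21, 5.2, 6.62 and 9.42 and 34.5, 40.6, 41.2 and 45.2. In WSB/EiJ, Foxm1 read 3.28, 5.24, 3.79 and 4.52 and 62.2, 64, 57.5 and 45.1. All deficient arrays were above all control arrays in each strain, and 3, 3 and 1 of the 4 control arrays were above background in A/J, C3H/HeJ and WSB/EiJ. Foxm1 rose by 3.77 ± 0.17 in WSB/EiJ (adjusted p = 3.01e-12), 2.53 ± 0.17 in C3H/HeJ (adjusted p = 4.75e-09) and 0.84 ± 0.17 in A/J (adjusted p = 0.00401).

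Mybl2 (chromosome 2, 162909345 to 162909404), B-Myb, read 20.0, 26.9, 27.3 and 29.2 and 27.3, 26.6, 24.6 and 27 in A/J. In C3H/HeJ, Mybl2 read 23.4, 23.9, 24.5 and 22.8 and 33.3, 25.1, 26 and 24.7. In WSB/EiJ, Mybl2 read 31, 33.6, 46.2 and 37.6 and 51.8, 36.7, 45.3 and 38.9. The C3H/HeJ groups just failed to overlap, and the groups of the other strains overlapped. The values were 0.04 ± 0.14, adjusted p = 0.876 in A/J, 0.20 ± 0.14, adjusted p = 0.242 in C3H/HeJ and 0.22 ± 0.14, adjusted p = 0.146 in WSB/EiJ, with 95% intervals of -0.23 to 0.31, -0.07 to 0.46 and -0.04 to 0.49. Its second probe gave -0.49, 0.35 and 0.68 in the 3 strains, and Mybl2 passed in WSB/EiJ with the mean of both probes, median centring, spike-in scaling or WSB/EiJ control array 3 left out (0.33 to 1.23, adjusted p = 2e-05 to 0.0337), and in C3H/HeJ with spike-in scaling (0.67, adjusted p = 0.0124).

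The spindle checkpoint holds anaphase back until every chromosome is attached, and 3 of its 4 tested members rose in C3H/HeJ and WSB/EiJ. Bub1 (chromosome 2, 127626988 to 127627047), a checkpoint kinase, was above background on all deficient arrays of C3H/HeJ and WSB/EiJ and on 0 of the other 16 arrays. Bub1 read 1.9, 1.79, 1.15 and 3.24 and 3.61, 2.34, 2.84 and 1.34 in A/J, which gives no fold there. In C3H/HeJ, Bub1 read 0.98, 1.51, 1.07 and 1.89 and 6.55, 8.93, 5.27 and 6.62. In WSB/EiJ, Bub1 read 1.3, 1.17, 1.38 and 1.24 and 17.8, 20.1, 17.5 and 15.1. The step was plain in both strains and larger on the WSB/EiJ arrays. Bub1 was at least 3.86-fold higher in WSB/EiJ (adjusted p = 9.94e-10) and at least 1.25-fold higher in C3H/HeJ (adjusted p = 3.91e-06).

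Bub1b (chromosome 2, 118466830 to 118466889), the checkpoint protein BubR1, had the largest fitted value among the 13 A/J calls. Bub1b read 1.69, 2.21, 2.71 and 6.46 and 7.79, 13.7, 7.55 and 4.23 in A/J, with 1 of 4 control arrays above background. In C3H/HeJ, Bub1b read 3.31, 1.62, 1.77 and 2.33 and 12.7, 15.2, 12 and 12. In WSB/EiJ, Bub1b read 1.2, 2.23, 1.14 and 1.13 and 21, 27.3, 27.8 and 22.5. Deficient array 2 was the highest of A/J and control array 4 overlapped deficient array 4. Bub1b rose by 1.43 ± 0.36 in A/J (adjusted p = 0.014), a call lost without control array 1 or deficient array 2 (adjusted p = 0.0539 to 0.0574). It was at least 5.39-fold higher in WSB/EiJ (adjusted p = 4.81e-09) and at least 2.39-fold higher in C3H/HeJ (adjusted p = 1.61e-05). Mad2l1, which as Mad2 blocks Cdc20, rose by 1.76 ± 0.13 in WSB/EiJ, 1.40 ± 0.13 in C3H/HeJ and 0.50 ± 0.13 in A/J (adjusted p = 5.04e-10, 1.08e-07 and 0.014), and its A/J call was lost without A/J control array 1 or deficient array 1 (adjusted p = 0.0556 to 0.0587). Ttk, the kinase Mps1 that starts checkpoint signalling, was not tested, since only 2 WSB/EiJ deficient arrays were above background.

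Bub3 (chromosome 7, 138712221 to 138714437), the partner that brings Bub1 and BubR1 to the kinetochore, did not follow them. Bub3 read 481, 431, 497 and 584 and 490.2, 507, 551 and 517 in A/J. In C3H/HeJ, Bub3 read 711, 699.5, 719.6 and 827 and 642, 671, 640.1 and 720.1. In WSB/EiJ, Bub3 read 560.3, 613, 711 and 707 and 612, 560.5, 662 and 604. The diets overlapped in all strains, and every C3H/HeJ reading was above every A/J reading. The values were 0.06 ± 0.10, adjusted p = 0.727 in A/J, -0.14 ± 0.10, adjusted p = 0.227 in C3H/HeJ and -0.08 ± 0.10, adjusted p = 0.448 in WSB/EiJ, with 95% intervals of -0.13 to 0.25, -0.33 to 0.05 and -0.27 to 0.11. The sign depends on the scaling: in C3H/HeJ it was 0.03 with quantile normalization and 0.33 with spike-in scaling. In WSB/EiJ it was 0.26 (adjusted p = 0.0236) with quantile normalization and 0.24 (adjusted p = 0.0164) with normexp, which was also quantile normalized. There it was 0.92 (adjusted p = 5.33e-05) with spike-in scaling and 0.08 (adjusted p = 0.568) with median centring. Spike-in scaling shifted all genes upward, to medians of 0.29 in A/J, 0.32 in C3H/HeJ and 0.67 in WSB/EiJ, since the 75th percentile was itself higher on deficient arrays.

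**Figure D3:**
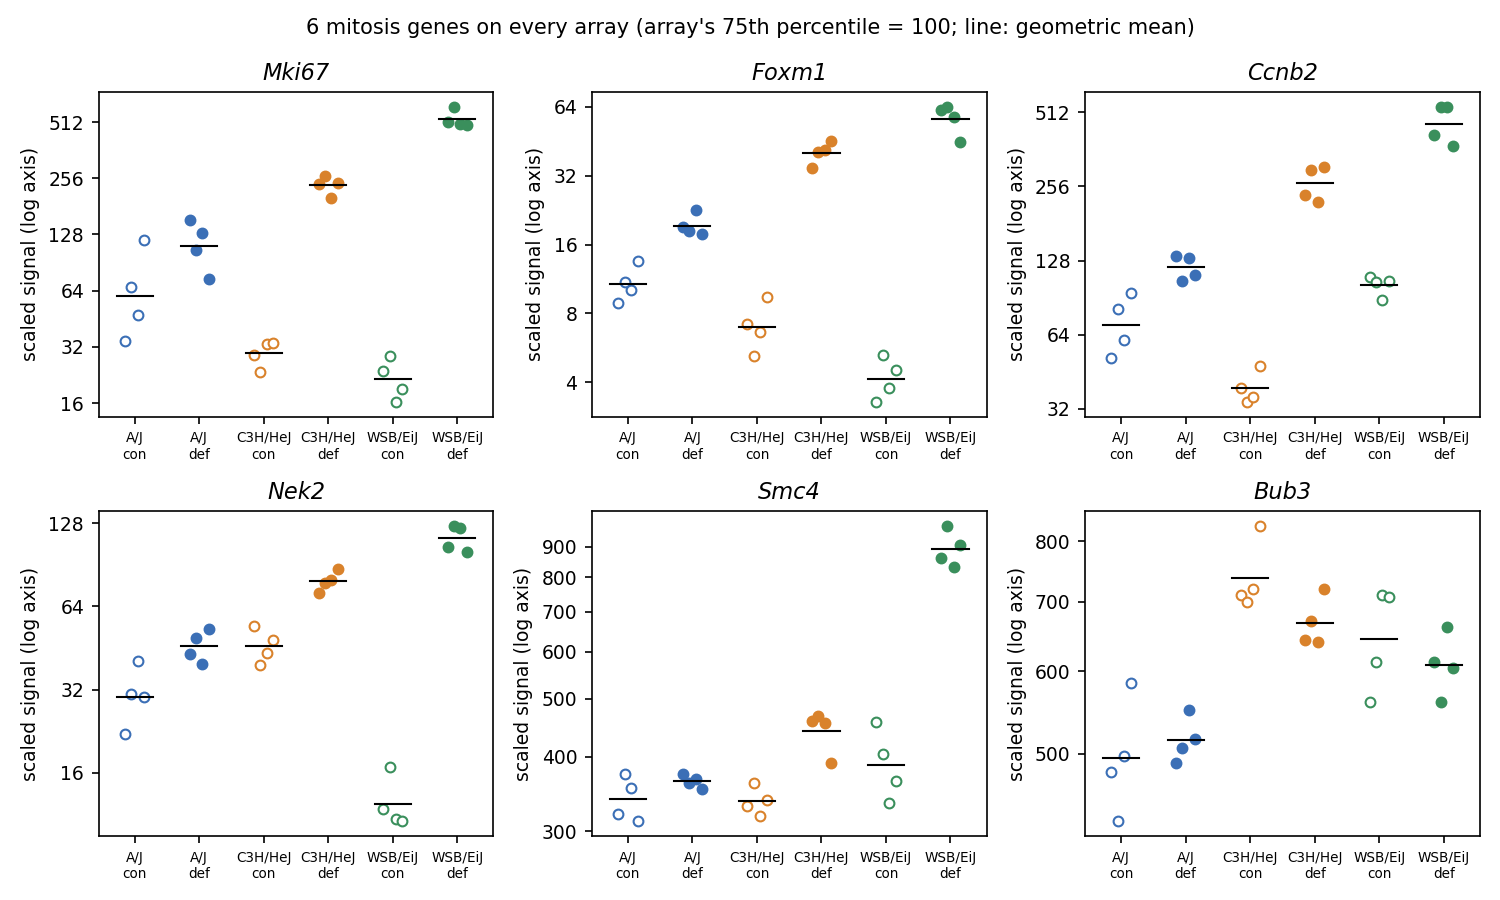
Scaled signal (log axis, array's 75th percentile set to 100) of Mki67, Foxm1, Ccnb2, Nek2, Smc4 and Bub3 on every array; open circles are control-diet and filled circles deficient-diet arrays, and the line is the geometric mean of 4 arrays. Foxm1 and Ccnb2 separate the diets in each strain, Nek2 and Smc4 stand out on WSB/EiJ deficient arrays against WSB/EiJ control arrays, and Bub3 overlaps between diets in each strain.

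The 4 members that release the sister chromatids rose in C3H/HeJ and WSB/EiJ, and Pttg1 passed in A/J. Cdc20 (chromosome 4, 118105534 to 118105593), the activator of the anaphase-promoting complex, read 63.1, 128, 113 and 126 and 234, 139, 199.9 and 182 in A/J. In C3H/HeJ, Cdc20 read 59, 47.9, 38.3 and 79.3 and 373, 507, 380.4 and 472. In WSB/EiJ, Cdc20 read 26.1, 62.6, 35.9 and 35.9 and 597, 1033, 887 and 897. No deficient array fell among the control arrays in any strain. Cdc20 rose by 4.46 ± 0.27 in WSB/EiJ (adjusted p = 6.97e-11) and 2.99 ± 0.27 in C3H/HeJ (adjusted p = 1.26e-07), and its A/J value of 0.84 ± 0.27, adjusted p = 0.0525 passed without A/J control array 4 or with quantile normalization, among other settings.

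Ube2c, the ubiquitin-conjugating enzyme that works with that complex, rose by 4.51 ± 0.31 in WSB/EiJ and 1.68 ± 0.31 in C3H/HeJ (adjusted p = 2.79e-10 and 0.000247) and was at 0.83 ± 0.31, adjusted p = 0.0906 in A/J. Pttg1, securin, which keeps separase idle, rose by 2.10 ± 0.15, 1.05 ± 0.15 and 0.56 ± 0.15 in WSB/EiJ, C3H/HeJ and A/J (adjusted p = 4.01e-10, 1.94e-05 and 0.0184). The A/J call of Pttg1 was lost without A/J control array 1 or deficient array 3 (adjusted p = 0.0654 to 0.0666). Espl1, separase, which cuts cohesin, was at least 5.38-fold higher in WSB/EiJ and at least 1.54-fold higher in C3H/HeJ (adjusted p = 1.35e-07 and 0.000441), and was at 0.66 ± 0.41, adjusted p = 0.31 in A/J.

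All 5 tested centromere and kinetochore members rose in C3H/HeJ and WSB/EiJ, and Spc25 passed in A/J. Cenpa (chromosome 5, 30974916 to 30975386), the histone variant that marks centromeres, read 66.9, 56.3, 56.9 and 65.4 and 76.5, 76.8, 62.6 and 83.2 in A/J. In C3H/HeJ, Cenpa read 78.5, 33.1, 77.2 and 66.9 and 104, 108, 107.4 and 114. In WSB/EiJ, Cenpa read 52.1, 58.4, 51.2 and 53.6 and 119, 141, 144 and 122. The diets were apart in C3H/HeJ and WSB/EiJ by a smaller step than for the cyclins. Cenpa rose by 1.28 ± 0.18 in WSB/EiJ (adjusted p = 3.46e-06) and 0.84 ± 0.18 in C3H/HeJ (adjusted p = 0.00116), against 0.28 ± 0.18, adjusted p = 0.336 in A/J.

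Spc25 (chromosome 2, 69031953 to 69032012), a subunit of the Ndc80 complex that grips microtubules, had the lowest adjusted p in A/J. Spc25 read 223, 337, 312 and 272.4 and 547, 705, 556 and 710.5 in A/J. In C3H/HeJ, Spc25 read 407, 378, 303 and 348 and 724, 775, 1145 and 935. In WSB/EiJ, Spc25 read 180.2, 199, 199.9 and 161 and 1173, 1125, 1217 and 1061. No group of 1 diet reached the other in any strain. Spc25 rose by 1.14 ± 0.15 in A/J (adjusted p = 5.73e-05), 1.30 ± 0.15 in C3H/HeJ (adjusted p = 1.69e-06) and 2.63 ± 0.15 in WSB/EiJ (adjusted p = 2.32e-11).

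Nuf2 (chromosome 1, 171440451 to 171440510), another subunit of that complex, read 1.97, 4.62, 2.31 and 8.4 and 8.46, 7.33, 7.38 and 8.2 in A/J, with 1 of 4 control arrays above background. In C3H/HeJ, Nuf2 read 3.71, 2.55, 1.06 and 5.42 and 20.0, 21.2, 57.6 and 27.9. In WSB/EiJ, Nuf2 read 1.39, 2.67, 3.26 and 1.3 and 22.4, 30.8, 24 and 21.8. C3H/HeJ deficient array 3 was the highest of all, and it and array 4 put the C3H/HeJ deficient group beside the WSB/EiJ one. Nuf2 was at least 5.4-fold higher in WSB/EiJ (adjusted p = 9.82e-07) and at least 5.32-fold higher in C3H/HeJ (adjusted p = 1.52e-05), and was at 1.10 ± 0.47, adjusted p = 0.135 in A/J. Ndc80 itself was at least 2.95-fold higher in WSB/EiJ (adjusted p = 3.23e-06) and at least 1.15-fold higher in C3H/HeJ (adjusted p = 0.00148, 3 of 4 deficient arrays above background). In A/J 1 of 8 arrays was above background for Ndc80. Cenpe, the kinesin that brings chromosomes to the spindle equator, rose by 4.47 ± 0.28 and 2.93 ± 0.28 in WSB/EiJ and C3H/HeJ (adjusted p = 1.01e-10 and 2.19e-07) and was at 0.77 ± 0.28, adjusted p = 0.0846 in A/J. Cenpf was not above background on any array (0 of 24) and was not tested.

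Of the chromosomal passenger complex, which corrects faulty attachments, Birc5 and Incenp rose in all strains. Birc5 (chromosome 11, 117716978 to 117717037), survivin, read 64.5, 132, 90.3 and 166 and 258, 179, 237 and 181 in A/J. In C3H/HeJ, Birc5 read 85.3, 48.8, 78.8 and 98.1 and 415, 538, 431 and 540.2. In WSB/EiJ, Birc5 read 79.3, 81.6, 40.1 and 53.7 and 1149, 1276, 1082 and 979.5. Diets did not overlap, although in A/J control array 4 came close to the lowest deficient arrays. Birc5 rose by 4.19 ± 0.27 in WSB/EiJ (adjusted p = 1.19e-10), 2.66 ± 0.27 in C3H/HeJ (adjusted p = 3.84e-07) and 0.99 ± 0.27 in A/J (adjusted p = 0.0217). Incenp, the scaffold of the complex, rose by 2.83 ± 0.17, 1.17 ± 0.17 and 0.57 ± 0.17 in WSB/EiJ, C3H/HeJ and A/J (adjusted p = 7.43e-11, 3.39e-05 and 0.0407). The A/J calls of Birc5 and Incenp were lost without 4 and 6 single arrays (adjusted p = 0.0689 to 0.0856 and 0.0502 to 0.145), among them A/J control 1 and 3 and deficient 1 and 3 for both, and also A/J deficient 2 and WSB/EiJ control 2 for Incenp.

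Aurkb (chromosome 11, 68865105 to 68865164), Aurora B, the kinase of that complex, was not well above background on any array (0 of 24). Aurkb read 2.33, 1.2, 1.33 and 1.11 and 1.22, 1.18, 0.797 and 1.08 in A/J. In C3H/HeJ, Aurkb read 1.1, 1.55, 1.2 and 2.13 and 0.774, 0.746, 1.29 and 0.872. In WSB/EiJ, Aurkb read 1.58, 1.18, 1.43 and 1.51 and 0.657, 0.585, 0.81 and 1.75. These readings are those of a probe near background and give no level, so the array says nothing of a change in this gene.

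All 6 spindle motors and microtubule proteins rose in C3H/HeJ and WSB/EiJ, and Kif22 passed in A/J. Kif11 (chromosome 19, 37495755 to 37495814), the kinesin that pushes the spindle poles apart, was above background on 4 WSB/EiJ deficient arrays and 2 C3H/HeJ deficient arrays. Kif11 read 1.85, 0.988, 3.01 and 0.921 and 2.6, 3.25, 3.02 and 2.16 in A/J, all below background. In C3H/HeJ, Kif11 read 0.869, 1.16, 0.954 and 1.68 and 5.95, 5.31, 4 and 3.37. In WSB/EiJ, Kif11 read 1.24, 0.981, 1.18 and 1.21 and 10.6, 10.6, 11.4 and 6.81. The WSB/EiJ deficient arrays were the highest. Kif11 was at least 2.13-fold higher in WSB/EiJ (adjusted p = 2.55e-08), and no fold can be given in C3H/HeJ (adjusted p = 3.39e-05) or A/J.

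Nusap1 (chromosome 2, 119475072 to 119475131), which bundles spindle microtubules near chromosomes, read 3.75, 8.95, 6.06 and 17.9 and 17.5, 11.1, 15.5 and 5.56 in A/J. In C3H/HeJ, Nusap1 read 2.73, 2.2, 9.75 and 4.8 and 24.1, 31.8, 21.6 and 22.8, with 1 of 4 control arrays above background. In WSB/EiJ, Nusap1 read 4.45, 4.11, 1.19 and 3.98 and 99.8, 104, 108 and 86.2, with 0 of 4 control arrays above background. The WSB/EiJ deficient arrays stood far over all others. Nusap1 was at least 20.2-fold higher in WSB/EiJ (adjusted p = 3.05e-08), rose by 2.60 ± 0.49 in C3H/HeJ (adjusted p = 0.000357) and was at 0.55 ± 0.49, adjusted p = 0.5 in A/J.

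Tpx2 (chromosome 2, 152719476 to 152719535), the spindle assembly factor that activates Aurora A, read 1.98, 4.97, 1.91 and 5.69 and 5.45, 4.48, 5.64 and 4.51 in A/J. In C3H/HeJ, Tpx2 read 2.12, 1.28, 5.27 and 2.25 and 22.1, 29.1, 21.4 and 23.5, with 1 of 4 control arrays above background. In WSB/EiJ, Tpx2 read 1.33, 2.5, 1.27 and 3.58 and 60.2, 71.8, 74.5 and 61, with 0 of 4. A/J readings overlapped between diets, and the C3H/HeJ and WSB/EiJ deficient arrays were clear of all controls. Tpx2 was at least 14.7-fold higher in WSB/EiJ (adjusted p = 1.27e-09), rose by 3.32 ± 0.39 in C3H/HeJ (adjusted p = 2.76e-06) and was at 0.63 ± 0.39, adjusted p = 0.308 in A/J.

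The other motors rose in WSB/EiJ and C3H/HeJ. Kif2c, which takes microtubules apart at centromeres, was at least 7.15-fold and at least 2.33-fold higher there (adjusted p = 1.83e-09 and 2.03e-06). In A/J the value of Kif2c was -0.29 ± 0.36, adjusted p = 0.635, its second probe gave 0.57, and 1 of 4 control arrays was above background. Kif4, a chromosome-bound kinesin, was at least 5.58-fold higher in WSB/EiJ and at least 1.89-fold higher in C3H/HeJ (adjusted p = 1.92e-10 and 4.63e-06), and was at 0.60 ± 0.29, adjusted p = 0.186 in A/J. Kif22, a kinesin that also binds DNA, rose by 3.19 ± 0.17, 1.81 ± 0.17 and 0.60 ± 0.17 in WSB/EiJ, C3H/HeJ and A/J (adjusted p = 8.55e-12, 1.35e-07 and 0.024). The A/J call of Kif22 was lost without A/J control array 1 or 3 or deficient array 1 or 3 (adjusted p = 0.0627 to 0.104).

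Of the 6 members of the central spindle and the cleavage furrow, 6 rose in WSB/EiJ, 5 in C3H/HeJ and 1, Kif20a, in A/J. Prc1 (chromosome 7, 87461048 to 87461107), which crosslinks the microtubules of the central spindle, is shown for its large fitted effect in WSB/EiJ. Prc1 read 6.99, 22.8, 16 and 43.8 and 51.5, 32.2, 40.6 and 21.2 in A/J. In C3H/HeJ, Prc1 read 7.97, 36.7, 6.87 and 10.3 and 66.7, 88.7, 55.1 and 64. In WSB/EiJ, Prc1 read 7.49, 12.6, 3.65 and 7.22 and 258, 289.5, 267 and 229. C3H/HeJ control array 2 stood apart from the other 3 control arrays but below the deficient ones, and the A/J diets overlapped. Prc1 rose by 5.20 ± 0.50 in WSB/EiJ (adjusted p = 2.25e-08, 3 of 4 control arrays above background) and 2.50 ± 0.50 in C3H/HeJ (adjusted p = 0.000561), against 0.92 ± 0.50, adjusted p = 0.246 in A/J.

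Racgap1 (chromosome 15, 99451768 to 99451827), a partner of Kif23 in the complex that positions the furrow, read 10.02, 23.4, 20.9 and 32.2 and 41.5, 30.4, 37.3 and 27.6 in A/J. In C3H/HeJ, Racgap1 read 9.05, 14.2, 13.9 and 16.7 and 64.7, 79.5, 51.2 and 58.9. In WSB/EiJ, Racgap1 read 6.5, 13.6, 4.36 and 8.76 and 174, 199, 205 and 176. Both latter strains showed separate groups, and A/J an overlap. Racgap1 rose by 4.62 ± 0.31 in WSB/EiJ (adjusted p = 2.49e-10) and 2.26 ± 0.31 in C3H/HeJ (adjusted p = 1.62e-05), and was at 0.76 ± 0.31, adjusted p = 0.124 in A/J.

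Anln (chromosome 9, 22136685 to 22136744), anillin, the scaffold of the contractile ring, read 16.9, 19.2, 9.49 and 33.7 and 24.3, 26.7, 28.3 and 23.8 in A/J. In C3H/HeJ, Anln read 8.29, 3.68, 10.9 and 7.07 and 34.8, 50.1, 29.5 and 34, with 2 of 4 control arrays above background. In WSB/EiJ, Anln read 13.8, 14.6, 13.5 and 14 and 133, 166, 153 and 132. The WSB/EiJ control arrays were close to each other and above those of C3H/HeJ. Anln rose by 3.38 ± 0.30 in WSB/EiJ (adjusted p = 6.71e-09) and 2.38 ± 0.30 in C3H/HeJ (adjusted p = 5.02e-06), with 0.52 ± 0.30, adjusted p = 0.268 in A/J.

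Kif20a, a kinesin of the central spindle, read 17.7, 21.6, 24.1 and 25.8 and 42.5, 28.2, 36.5 and 32.9 in A/J. In C3H/HeJ, Kif20a read 21.3, 20.3, 18 and 29.2 and 102, 146, 91.3 and 130.2. In WSB/EiJ, Kif20a read 12.9, 19, 12.3 and 16.2 and 145, 194, 189 and 169.6. No strain showed an overlap of diets. Kif20a rose by 3.54 ± 0.18, 2.40 ± 0.18 and 0.65 ± 0.18 in WSB/EiJ, C3H/HeJ and A/J (adjusted p = 8.5e-12, 1.57e-08 and 0.0276), and the A/J call was lost without A/J control array 1 or 2 or deficient array 1 or 3 (adjusted p = 0.0628 to 0.109). Ect2, which activates RhoA at the furrow, rose by 3.21 ± 0.25 and 2.09 ± 0.25 in WSB/EiJ and C3H/HeJ (adjusted p = 1.74e-09 and 3.91e-06) and was at 0.75 ± 0.25, adjusted p = 0.0637 in A/J. Kif23 was at least 2.79-fold higher in WSB/EiJ (adjusted p = 0.000449). In C3H/HeJ, Kif23 was at 1.26 ± 0.68, adjusted p = 0.133, where control array 4 read 18.1 beside at most 1.95 on the other 3. Without that array the value was 2.24 (adjusted p = 0.00137), and with array weights 1.91 (adjusted p = 0.0172). In A/J, Kif23 was at 0.24 ± 0.68, adjusted p = 0.845, with 1 array of each diet above background.

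The 4 tested condensin members, which fold chromosomes for mitosis, rose in C3H/HeJ and WSB/EiJ and had the lowest median effect of the roles in C3H/HeJ and in A/J, 0.69 and 0.16, and also in WSB/EiJ, 1.33. Smc4 (chromosome 3, 68838437 to 68838496), an ATPase of the condensin core, read 321, 375, 355 and 312 and 375, 362, 367 and 354 in A/J. In C3H/HeJ, Smc4 read 331, 362, 318 and 338 and 459.9, 468, 455 and 390.3. In WSB/EiJ, Smc4 read 457, 404, 335 and 364 and 861, 975, 831 and 905. The WSB/EiJ deficient arrays were apart from all others, the C3H/HeJ deficient arrays just cleared their controls, and the A/J groups overlapped. Smc4 rose by 1.20 ± 0.09 in WSB/EiJ (2.3-fold, adjusted p = 1.35e-09) and 0.39 ± 0.09 in C3H/HeJ (1.31-fold, adjusted p = 0.00211), and was at 0.10 ± 0.09, adjusted p = 0.512 in A/J.

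Ncapd2 (chromosome 6, 125118012 to 125118066), a subunit of condensin I, read 117, 119.9, 115 and 127 and 131, 132, 128 and 136 in A/J. In C3H/HeJ, Ncapd2 read 135, 142, 114 and 132 and 156, 179.5, 181 and 177. In WSB/EiJ, Ncapd2 read 145, 141, 126 and 157 and 257, 290.0, 284 and 244. Diets were apart in all strains by small steps. Ncapd2 rose by 0.92 ± 0.08 and 0.41 ± 0.08 in WSB/EiJ and C3H/HeJ (adjusted p = 1.31e-08 and 0.000739) and was at 0.14 ± 0.08, adjusted p = 0.294 in A/J. Smc2, the other ATPase, rose by 1.46 ± 0.17 and 0.96 ± 0.17 (adjusted p = 2.8e-07 and 0.000193) and was at 0.18 ± 0.17, adjusted p = 0.524 in A/J. Ncaph, the subunit that closes the condensin ring, rose by 2.64 ± 0.23 and 1.75 ± 0.23 (adjusted p = 5.47e-09 and 8.43e-06) and was at 0.52 ± 0.23, adjusted p = 0.15 in A/J. Ncapg was above background on 3 WSB/EiJ deficient arrays only and was not tested.

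**Figure D4:**
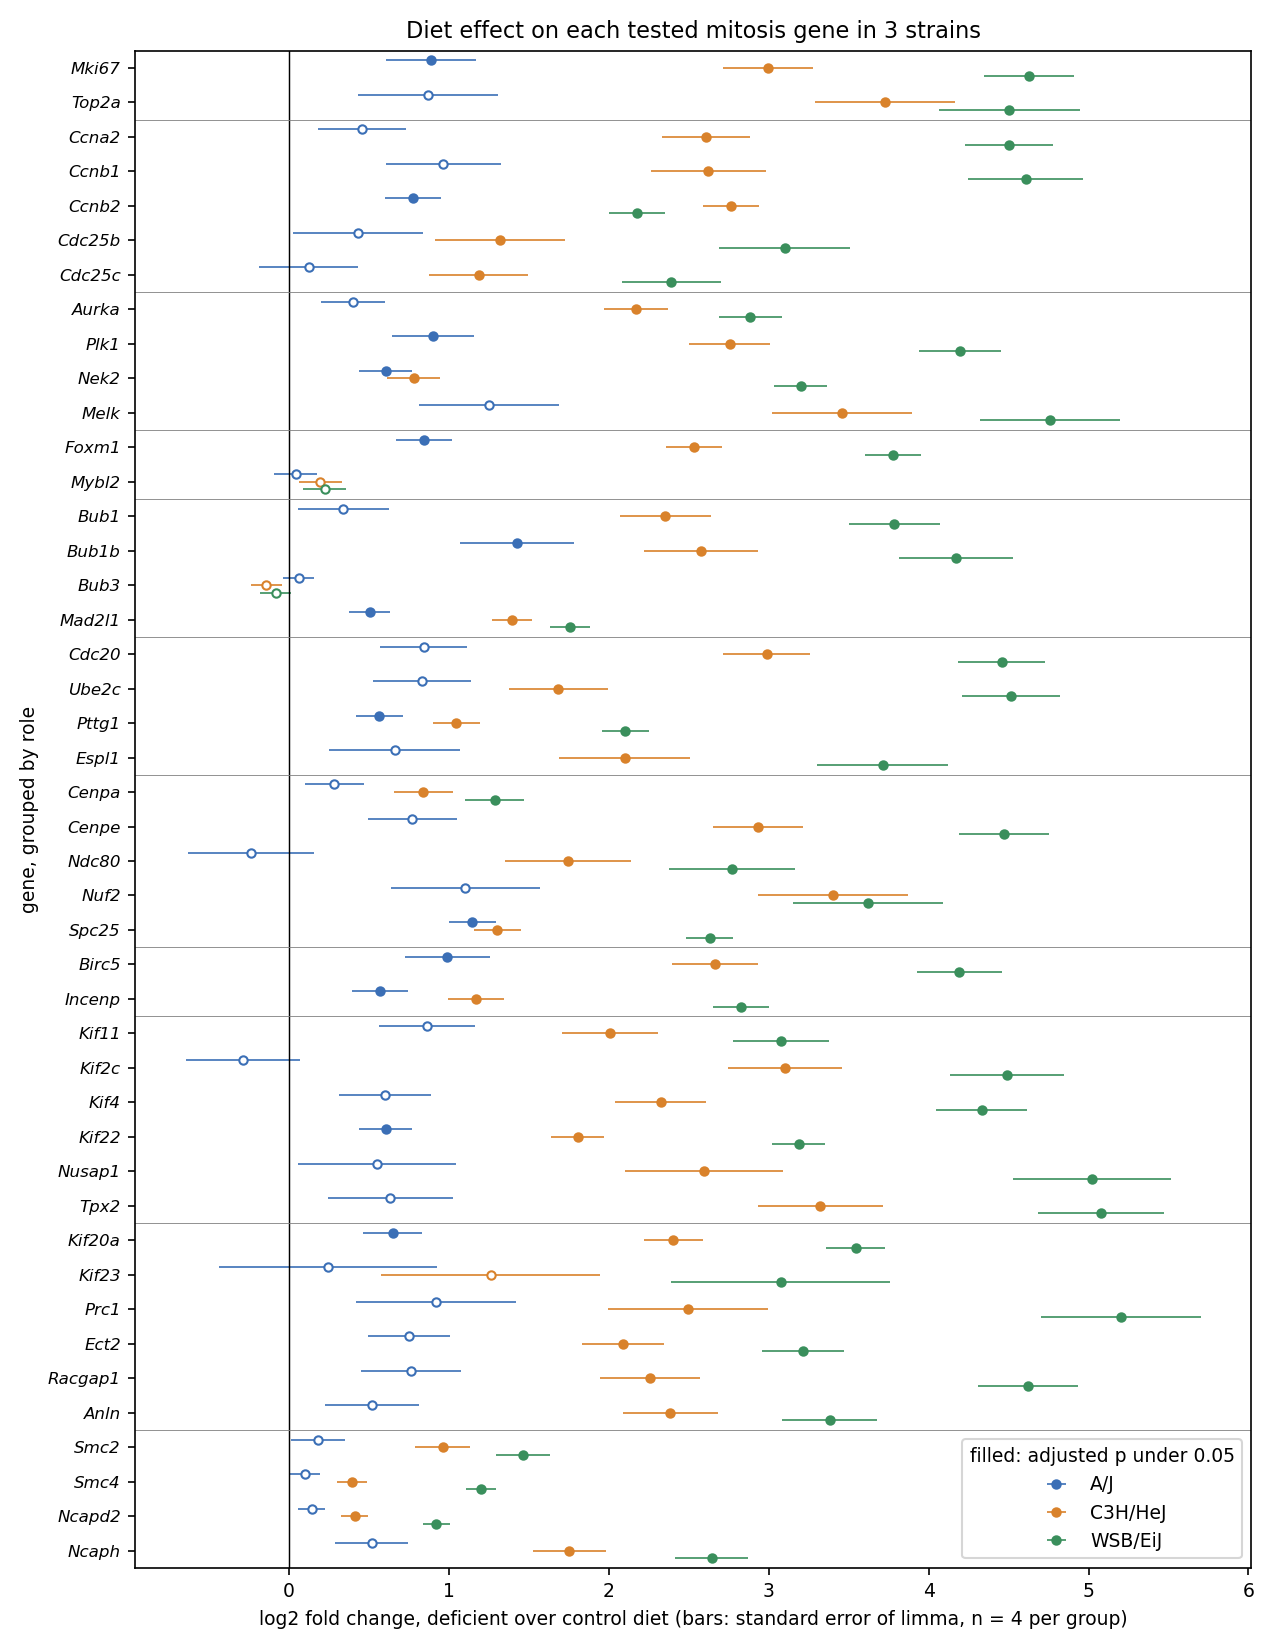
Diet effect (log2 fold change, deficient over control, with limma's standard error, n = 4 arrays per group) of each of the 44 tested mitosis genes in A/J, C3H/HeJ and WSB/EiJ, filled where the adjusted p was under 0.05; genes are grouped by role. WSB/EiJ values lie to the right of C3H/HeJ values for nearly all genes, with Ccnb2 the other way round, and values of genes not above background on control diet are plotted as measured.

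The question of the series, how strains differ in their response, is addressed by the difference of 2 diet effects. The effect was larger in WSB/EiJ than in A/J for 42 members, against 16.6% of all genes, larger in WSB/EiJ than in C3H/HeJ for 30, against 9.22%, and larger in C3H/HeJ than in A/J for 20, against 2.07%. It was smaller for 0 members in each, against 33.9%, 16.8% and 1.5% of all genes in that order. These comparisons share arrays, so they are not independent of each other. Of the 22 members above background everywhere, 20, 15 and 12 passed. The share among all genes above background everywhere was not taken for these differences or for the strain comparisons below. Foxm1 had the lowest adjusted p between WSB/EiJ and A/J (2.93 ± 0.25, adjusted p = 9.53e-08, with 1 of 4 WSB/EiJ control arrays above background), Nek2 between WSB/EiJ and C3H/HeJ (2.42 ± 0.23, adjusted p = 1.03e-06) and Ccnb2 between C3H/HeJ and A/J (1.99 ± 0.25, adjusted p = 0.00023). The effects of Nek2 in C3H/HeJ and A/J differed by 0.18 ± 0.23, adjusted p = 0.69 (95% interval -0.28 to 0.63). For Ccnb2 the WSB/EiJ effect was below the C3H/HeJ effect without passing (-0.58 ± 0.25, adjusted p = 0.0831, 95% interval -1.07 to -0.10).

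Single arrays mattered less for these differences than for the A/J effect alone. Of the 42 differences between WSB/EiJ and A/J, 1 (Kif23) was lost without some array, of the 30 between WSB/EiJ and C3H/HeJ 8 (Cdc25b, Cdc25c, Bub1b, Espl1, Kif2c, Tpx2, Ect2 and Ncaph), and of the 20 between C3H/HeJ and A/J 3 (Kif4, Ect2 and Ncaph). The count between C3H/HeJ and A/J was 17 to 25 over all single arrays left out, lowest without C3H/HeJ deficient array 2, and that between WSB/EiJ and C3H/HeJ was 24 to 33, lowest without WSB/EiJ deficient array 2.

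On the control diet the members were lower in WSB/EiJ than in A/J for 21 of 44, against 18.6% of all genes, and higher for 4, against 26.4%. C3H/HeJ was below A/J for 13 members, against 10.5%, and above for 2, against 14%. WSB/EiJ was below C3H/HeJ for 10, against 18.9%, and above for 4, against 21.7%, so the count of lower calls in that pair was near the share of all genes. Of the 22 members above background on every array, 10 were lower and 4 higher in WSB/EiJ than in A/J, 8 and 2 in C3H/HeJ than in A/J, and 6 and 3 in WSB/EiJ than in C3H/HeJ, with medians of -0.35, -0.35 and -0.061. Calls in both directions fell from 15 to 8 with normexp and to 6 with only those groups fitted for C3H/HeJ against A/J, and from 25 to 15 and 16 for WSB/EiJ against A/J. Foxm1 had the lowest adjusted p between WSB/EiJ and A/J (-1.38 ± 0.17, adjusted p = 1.9e-06, with 1 of 4 WSB/EiJ and 3 of 4 A/J arrays above background), Nek2 between WSB/EiJ and C3H/HeJ (-1.90 ± 0.16, adjusted p = 9.69e-09) and Bub3 between C3H/HeJ and A/J (0.57 ± 0.10, adjusted p = 0.000156). The exceptions to the direction of most members were Nek2 (0.61 ± 0.16) and Bub3 in C3H/HeJ over A/J. In WSB/EiJ over A/J they were Ccnb2 (0.54 ± 0.17), Mybl2 (0.52 ± 0.14), Bub3 (0.38 ± 0.10) and Ncapd2 (0.24 ± 0.08, -0.06 with spike-in scaling). In WSB/EiJ over C3H/HeJ they were Ccnb2 (1.39 ± 0.17), Anln (1.00 ± 0.30, with 2 of 4 C3H/HeJ arrays above background), Aurka (0.74 ± 0.20) and Mybl2 (0.63 ± 0.14). With spike-in scaling Ccnb2, Mybl2, Bub3 and Ncapd2 in WSB/EiJ over A/J and Aurka, Mybl2 and Anln in WSB/EiJ over C3H/HeJ no longer passed. Leaving out 1 array ended the WSB/EiJ over A/J calls of Ccnb2 (A/J control 1 or 3, adjusted p = 0.0513 to 0.0747) and Ncapd2 (A/J control 1 or 3 or WSB/EiJ control 1 or 4, adjusted p = 0.0529 to 0.0864). Probes were not checked for sequence differences between strains, which would move a level. Such a shift would cancel from a diet effect within a strain only if it were equal in log2 on both diets, which was not tested.

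On the deficient diet WSB/EiJ was above A/J for 44 of 44 members, against 23.4% of all genes, and above C3H/HeJ for 38, against 21.1%, and C3H/HeJ was above A/J for 30, against 10.9%. Lower calls numbered 0 in each, against 37.1%, 31% and 10.7% of all genes in that order. The 15 members tested only through a deficient group were selected for being high there, so these counts are not independent of the filter. Of the 22 members above background on every array, 22, 19 and 17 were higher in the same order, with medians of 1.65, 0.83 and 0.67. Smc4 had the lowest adjusted p of WSB/EiJ over A/J (1.29 ± 0.09, adjusted p = 5.16e-10) and over C3H/HeJ (1.01 ± 0.09, adjusted p = 2.52e-08), and Kif20a of C3H/HeJ over A/J (1.74 ± 0.18, adjusted p = 4.58e-07).

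Genes of the same machinery outside the 48 were read from lists of other mitosis genes, DNA replication genes and G1 regulators. Of 60 other mitosis genes 56 were tested. In WSB/EiJ 45 rose and 3 fell, beside 23.6% and 50.1% of all genes. In C3H/HeJ 44 rose and 1 fell, beside 17.3% and 30.8%. In A/J 5 rose and 1 fell, beside 5.73% and 4.71%. The medians were 3.15, 1.60 and 0.37 in that order. Trip13, which resets checkpoint complexes, rose by 2.65 ± 0.12, adjusted p = 3.01e-12 in WSB/EiJ, and Ckap2, a spindle protein, was at least 11.4-fold higher there (adjusted p = 7.44e-12) and at least 2.77-fold higher in C3H/HeJ (adjusted p = 4.99e-08). In A/J, where 1 of 4 control arrays was above background, Ckap2 rose by 1.23 ± 0.27, adjusted p = 0.00599. Tacc3, which stabilises spindle fibres, rose by 1.58 ± 0.14, adjusted p = 9.05e-08 in C3H/HeJ, and Wee1, the kinase that holds Cdk1 inactive, by 1.70 ± 0.35, adjusted p = 0.00432 in A/J.

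DNA replication genes moved by less. Of 27 listed, 26 were tested. In WSB/EiJ 16 rose and 2 fell, beside 23.6% and 50.1% of all genes. In C3H/HeJ 14 rose and 3 fell, beside 17.3% and 30.8%. In A/J 6 rose and 0 fell, beside 5.73% and 4.71%. The medians were 0.73, 0.53 and 0.15 in that order. Mcm6, a subunit of the replicative helicase, rose by 2.82 ± 0.20, adjusted p = 5.04e-10 in WSB/EiJ, and Mcm5, another, by 2.17 ± 0.20, adjusted p = 1.49e-07 in C3H/HeJ, where Gins2, its partner, rose by 2.59 ± 0.26, adjusted p = 3.35e-07. Mcm10, a replication initiation factor, fell in WSB/EiJ (-3.91 ± 0.29, adjusted p = 8.08e-10). In A/J the licensing factor Cdt1 rose by 0.59 ± 0.13, adjusted p = 0.00682 and its inhibitor Gmnn, geminin, by 0.55 ± 0.12, adjusted p = 0.00668.

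Of 21 G1 cyclins, kinases and inhibitors 20 were tested. In WSB/EiJ 14 rose and 2 fell, beside 23.6% and 50.1% of all genes. In C3H/HeJ 8 rose and 1 fell, beside 17.3% and 30.8%. In A/J 3 rose and 0 fell, beside 5.73% and 4.71%. The medians were 1.11, 0.31 and 0.18 in that order. Ccnd1, cyclin D1, the sensor of growth signals, had its largest effect in C3H/HeJ (4.10 ± 0.22, adjusted p = 1.5e-10), with 2.93 ± 0.22, adjusted p = 1.1e-09 in WSB/EiJ and 2.02 ± 0.22, adjusted p = 1.04e-05 in A/J. Rbl1, a relative of the retinoblastoma protein, rose by 2.24 ± 0.20, adjusted p = 6.75e-09 in WSB/EiJ and 2.11 ± 0.20, adjusted p = 1.49e-07 in C3H/HeJ, and Ccne1, cyclin E1, by 1.28 ± 0.21, adjusted p = 0.000805 in A/J.

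**Figure D5:**
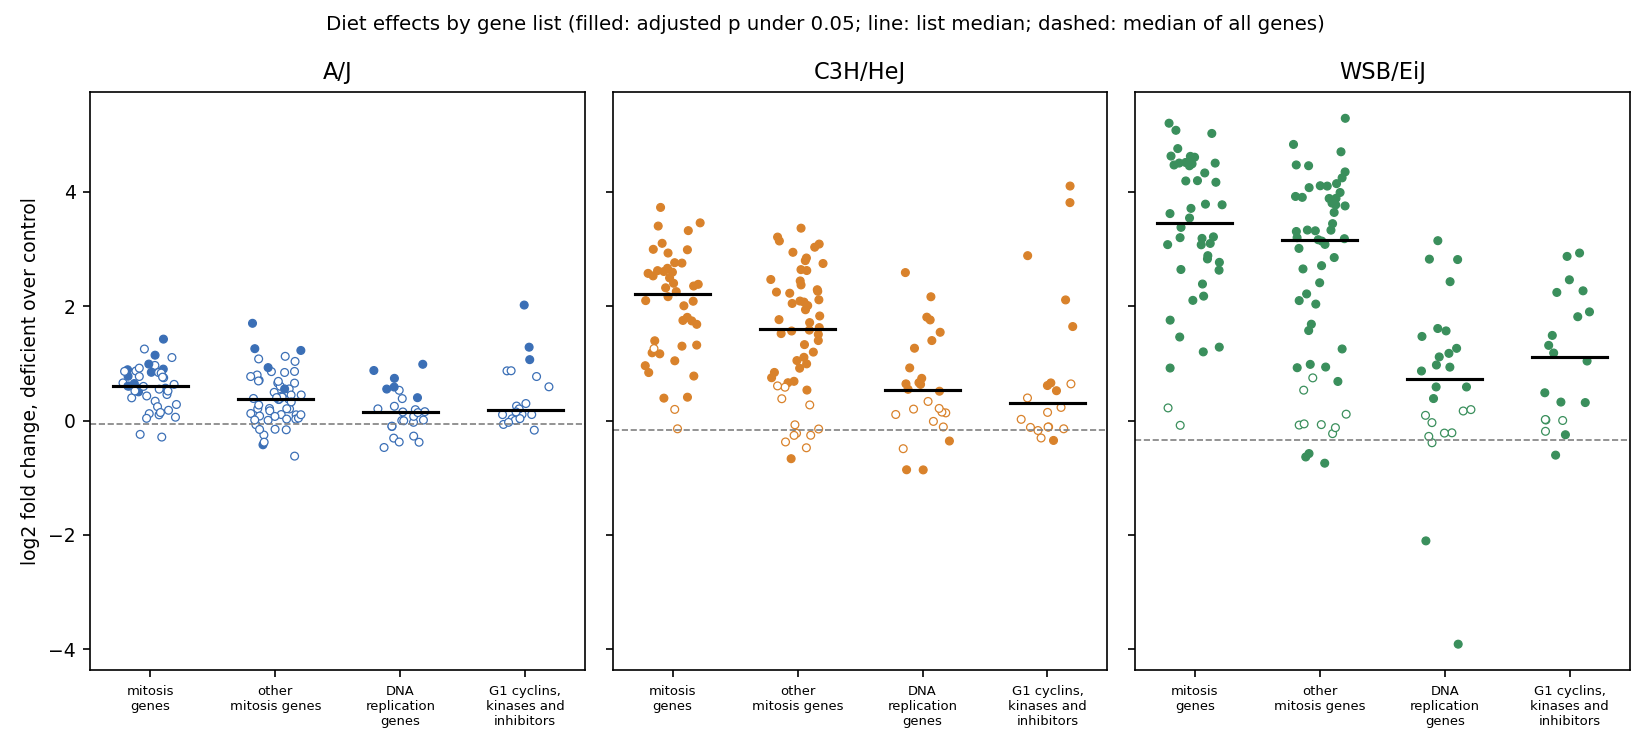
Diet effects (log2 fold change, deficient over control) of the 44 tested mitosis genes, 56 other mitosis genes, 26 DNA replication genes and 20 G1 cyclins, kinases and inhibitors in each strain; filled points passed at an adjusted p under 0.05, the black line is the list's median and the dashed line the median of all genes. In WSB/EiJ the mitosis genes have a median of 3.46 and the DNA replication genes 0.73.

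The summed scaled signals of marker lists for cells of the liver are set beside the mitosis genes. They did not move one way. In WSB/EiJ the macrophage, stellate and biliary sums were higher on the deficient diet. The hepatocyte, lymphocyte and erythroid sums were lower there, and the endothelial sums overlapped between diets. For the counts of single markers below, 23.6%, 17.3% and 5.73% of all genes rose in WSB/EiJ, C3H/HeJ and A/J, and 50.1%, 30.8% and 4.71% fell. The 9 macrophage markers summed to 2700 to 3370 on WSB/EiJ control arrays and 16400 to 21000 on WSB/EiJ deficient arrays. In C3H/HeJ the sum was 4900 to 8410 and 9650 to 15700, and in A/J 6840 to 12500 and 14100 to 17400. The diets did not overlap in any strain, and 8, 8 and 5 of the 9 markers rose in WSB/EiJ, C3H/HeJ and A/J. Trem2, a receptor of lipid-associated macrophages, rose by 4.53 ± 0.48, adjusted p = 6e-06 in A/J and 4.41 ± 0.48, adjusted p = 1.04e-06 in C3H/HeJ, with 3 of 4 control arrays above background in each. Cd14, a receptor for bacterial lipopolysaccharide, rose by 5.84 ± 0.33, adjusted p = 2.35e-11 in WSB/EiJ and 3.77 ± 0.33, adjusted p = 8.69e-08 in C3H/HeJ. Cd68, a lysosomal protein, rose by 4.15 ± 0.22, adjusted p = 1.24e-11 in WSB/EiJ, and Itgax, the integrin CD11c, by 3.64 ± 0.68, adjusted p = 0.00182 in A/J (3 of 4 control arrays above background).

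The 9 stellate cell and myofibroblast markers summed to 985 to 1330 and 9950 to 20100 in WSB/EiJ, 593 to 984 and 2190 to 7950 in C3H/HeJ, and 757 to 2380 and 1220 to 3390 in A/J, where the ranges overlapped; 8, 6 and 3 of the 9 rose. Among the A/J control arrays the stellate sum was highest on array 4 (2375, beside 757 to 913 on the others), the array on which most members were highest. The other control groups went the other way. C3H/HeJ control array 4 and WSB/EiJ control array 2 had the highest member means (-2.51 and -2.7) and the lowest stellate sums (593 and 985). Among deficient arrays the highest stellate sum and the highest member mean shared an array in C3H/HeJ (array 2) but not in A/J or WSB/EiJ. Timp1, an inhibitor of matrix metalloproteinases, rose by 6.41 ± 0.58, 4.54 ± 0.58 and 3.44 ± 0.58 in WSB/EiJ, C3H/HeJ and A/J (adjusted p = 1.07e-08, 7.12e-06 and 0.00083), with 3, 4 and 2 of 4 control arrays above background. Col1a2, a chain of type I collagen, rose by 4.11 ± 0.34, 2.79 ± 0.34 and 1.21 ± 0.34 (adjusted p = 3.41e-09, 4.35e-06 and 0.0272). The 6 biliary and progenitor markers summed to 372 to 522 and 1130 to 4950 in WSB/EiJ, 347 to 436 and 502 to 2510 in C3H/HeJ, and 374 to 480 and 550 to 979 in A/J. Of these, Spp1, osteopontin, rose by 3.06 ± 0.42 and 1.70 ± 0.42 in WSB/EiJ and C3H/HeJ (adjusted p = 2.18e-06 and 0.00297), and Epcam, an epithelial adhesion protein, by 3.36 ± 0.54 and 2.30 ± 0.54 (adjusted p = 1.51e-05 and 0.00207, with 4 and 1 of 4 control arrays above background). In A/J the lowest adjusted p were those of Sox9 (-0.79 ± 0.31, adjusted p = 0.107) and Cftr (-1.21 ± 0.50, adjusted p = 0.127). Neither was called, and both values were negative although the A/J sum was higher on the deficient diet. The sum therefore does not stand for each marker of this list. The 8 hepatocyte markers were lower on the deficient diet in WSB/EiJ (603000 to 646000 and 273000 to 335000), and 8 of 8 fell there, 7 of 8 in C3H/HeJ and 1 of 8 in A/J. Of all genes, 50.1%, 30.8% and 4.71% fell in these strains. Cps1, the first enzyme of the urea cycle, was at -1.67 ± 0.27, adjusted p = 8.96e-05 in C3H/HeJ and -1.25 ± 0.27, adjusted p = 0.00605 in A/J. Ttr, transthyretin, was at -1.29 ± 0.17, adjusted p = 9.38e-07 in WSB/EiJ and -0.52 ± 0.17, adjusted p = 0.0503 in A/J. The nuclear receptor Hnf4a was at -1.32 ± 0.16, adjusted p = 3.19e-07 in WSB/EiJ, and the apolipoprotein Apoa1 at -0.75 ± 0.18, adjusted p = 0.00213 in C3H/HeJ.

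The 8 tested lymphocyte markers did not move one way. Their sums, which weigh bright probes most, were lower on the deficient diet in WSB/EiJ and C3H/HeJ and overlapped in A/J, 4170 to 6160 and 1490 to 2530 in WSB/EiJ, 4830 to 7620 and 1930 to 3930 in C3H/HeJ, and 4020 to 6230 and 2910 to 5110 in A/J, with 3 markers up and 3 down in WSB/EiJ, 2 and 2 in C3H/HeJ, and 1 and 1 in A/J. Of all genes, 23.6% rose and 50.1% fell in WSB/EiJ, 17.3% and 30.8% in C3H/HeJ, and 5.73% and 4.71% in A/J. The median diet effects of the lymphocyte markers were 0.49, 0.18 and 0.25. Cd3e, a chain of the T cell receptor complex, fell in all strains (-1.54 ± 0.22, -1.30 ± 0.22 and -0.97 ± 0.22, adjusted p = 2.71e-06, 0.000109 and 0.00706 in WSB/EiJ, C3H/HeJ and A/J). Ptprc, the common leukocyte antigen, rose by 3.50 ± 0.33, adjusted p = 1.6e-08 in WSB/EiJ, 2.03 ± 0.33, adjusted p = 7.88e-05 in C3H/HeJ and 1.03 ± 0.33, adjusted p = 0.0497 in A/J. The 7 endothelial markers summed to 3510 to 4180 and 2330 to 3580 in WSB/EiJ, 3550 to 4670 and 4030 to 5480 in C3H/HeJ, and 4850 to 6040 and 5700 to 7770 in A/J. The scavenger receptor Stab2 rose by 1.05 ± 0.20, adjusted p = 0.00219 in A/J and 0.83 ± 0.20, adjusted p = 0.00222 in C3H/HeJ, where Vwf, von Willebrand factor, rose by 0.90 ± 0.21, adjusted p = 0.00178. The lectin Clec4g (-0.56 ± 0.15, adjusted p = 0.00253) and the VEGF receptor Kdr (-0.52 ± 0.15, adjusted p = 0.00528) fell in WSB/EiJ, and Lyve1 was at 0.80 ± 0.31, adjusted p = 0.107 in A/J. The 3 tested erythroid markers fell in C3H/HeJ and WSB/EiJ, and 2 of the 3 in A/J. Among them Hba-a2, an alpha globin, was at -0.996 ± 0.22, -0.90 ± 0.22 and -0.78 ± 0.22 and Alas2, of haem synthesis, at -0.93 ± 0.21, -0.78 ± 0.21 and -0.65 ± 0.21 in WSB/EiJ, C3H/HeJ and A/J (adjusted p = 0.000359, 0.00242 and 0.0245, and 0.000418, 0.00463 and 0.0498). All marker effects here, those of hepatocytes included, are relative to the array's 75th percentile. In WSB/EiJ its log2 was 7.369 to 7.533 on control arrays and 8.385 to 8.591 on deficient ones. The spike-in signals there were 12.78 to 12.85 and 12.77 to 12.95. Spike-in scaling would therefore raise the WSB/EiJ effects, by the same amount for each gene. It moved Bub3 there from -0.08 to 0.92. The WSB/EiJ falls of Clec4g, Kdr, Hba-a2 and Alas2 are no larger than that shift, so they depend on the scaling. Whether the other falls of markers hold under it was not tested. Each list had at least 3 markers above background on all arrays of every group. The part of these cell types in the mitosis genes' rise was not tested, and the arrays do not say which cells of the liver hold the messages.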

How the data were processed

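Liver RNA (0.5 µg per sample) was labelled with 1 dye and hybridised to 24 arrays, 8 on each of 3 slides. The deposited scanner files hold each spot's intensity, processed by the authors with Agilent Feature Extraction 10.7 per the submitters' processing notes. The deposited normalized values were checked to be that signal times a constant for each array (3.06 to 7.3). Array columns without a sample numbered 0.

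From the processed intensity, 3332 spots flagged as outliers were dropped, spots of a probe averaged, log2 taken and each array's 75th percentile subtracted. A probe was kept when 1 or more groups had it well above background on their 4 arrays, and a gene was read from its brightest kept probe. All 24 arrays were fitted with limma 3.58.1 (lmFit and eBayes, with R 4.3.3 and the package data.table, version 1.17.8), 1 mean per strain and diet, with 2-sided p-values adjusted by Benjamini-Hochberg over all genes tested. The script was tested on simulated data. The number of arrays limits the precision.

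The members and lists were chosen with earlier results of these data known. Values of every array are given for a fixed panel, the 3 members with the largest called diet effect in each strain, members called against most others, and the member of lowest adjusted p in each strain comparison; for other lists, the 2 genes of lowest adjusted p. Alternatives were quantile, median and spike-in scaling, normexp (offset 50) followed by quantile normalization, the deposited table and other filters on dim probes. Others were the mean of probes, a block for slide or for replicate number, array weights, a threshold of 0.01, only the groups compared, and each array left out. Same-numbered arrays do not deviate together: 0 of 12 correlations were over 0.1. Exon and UTR positions of probes were not used here.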

Additional observations from a re-analysis of the deposited data

Results flagged for a closer look

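In 12 of 174 groups of 4 arrays (6.9%), 1 array stood apart from the other 3 by more than Dixon's 95% critical value, which chance gives in about 1 of 20 groups. C3H/HeJ control array 4 had a member mean of -2.51 (nearest -2.85) and a Bub3 signal of 827 (nearest 720). In WSB/EiJ deficient arrays, Mki67 read 619 on array 2 (nearest 515), and Top2a and Kif11 read 70.5 and 6.81 on array 4 (nearest 89.9 and 10.6). In WSB/EiJ control arrays, Bub1b and Melk read 2.23 and 4.29 on array 2 (nearest 1.20 and 1.49) and Nusap1 1.19 on array 3 (nearest 3.98), all below background. In C3H/HeJ, Prc1 read 36.7 on control array 2 (nearest 10.3), Smc4 390 on deficient array 4 (nearest 455), and Mybl2 and Ncapd2 33.3 and 156 on deficient array 1 (nearest 26.0 and 177).

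The diet effect differed between strains, by limma's interaction term at an adjusted p under 0.05, for 20 members in C3H/HeJ minus A/J, 42 in WSB/EiJ minus A/J and 30 in WSB/EiJ minus C3H/HeJ. Among genes with values of every array, the log2 difference in C3H/HeJ minus A/J was Mki67 2.11, Top2a 2.86, Ccna2 2.15, Ccnb2 1.99, Foxm1 1.69, Plk1 1.85, Aurka 1.77, Birc5 1.68, Bub1 2.01, Cdc20 2.15, Tpx2 2.69, Anln 1.87 and Kif20a 1.75. In WSB/EiJ minus A/J it was Mki67 3.74, Top2a 3.64, Ccna2 4.05, Ccnb1 3.64, Ccnb2 1.4, Foxm1 2.93, Plk1 3.3, Aurka 2.49, Birc5 3.2, Bub1 3.45, Cdc20 3.62, Cenpa 1.00, Kif11 2.22, Racgap1 3.86, Smc4 1.1, Bub1b 2.74, Spc25 1.49, Melk 3.51, Nuf2 2.52, Prc1 4.28, Tpx2 4.44, Nusap1 4.47, Nek2 2.6, Ncapd2 0.778, Anln 2.86 and Kif20a 2.9. In WSB/EiJ minus C3H/HeJ it was Mki67 1.63, Ccna2 1.9, Ccnb1 1.98, Foxm1 1.24, Plk1 1.44, Birc5 1.53, Bub1 1.43, Cdc20 1.47, Racgap1 2.37, Smc4 0.81, Bub1b 1.59, Spc25 1.33, Prc1 2.71, Tpx2 1.75, Nusap1 2.43, Nek2 2.42, Ncapd2 0.51 and Kif20a 1.14. For members not above background in a control group these are fitted differences and not bounds.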

How the results depend on the processing

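Direction and call of single genes were kept in 3550 results under other settings and in 6466 with 1 array left out; 102 and 155 lost the call, 101 and 59 gained it, and 19 and 16 changed sign, for causes that were not tested. Called members in A/J (13) numbered 27 with spike-in scaling, 26 with array weights, 25 without A/J control 4 and deficient 4 together, and 3 both at an adjusted p under 0.01 and with only the compared groups fitted. Restricting the fit to probes above background on every array leaves 22 members, of which 20 were called in C3H/HeJ and 20 in WSB/EiJ, the differences between diet effects gave 12 (C3H/HeJ minus A/J), 20 (WSB/EiJ minus A/J) and 15 (WSB/EiJ minus C3H/HeJ), control-diet comparisons 14 (WSB/EiJ minus A/J) and 9 (WSB/EiJ minus C3H/HeJ), and deficient-diet comparisons 17, 22 and 19 in the same order. On the control diet, C3H/HeJ minus A/J gave 8 with normexp, 8 at 0.01 and 6 with only those groups, and WSB/EiJ minus A/J 15, 15 and 16. With 1 array left out, calls ranged 3 to 24 in A/J, 41 to 42 in C3H/HeJ and 42 to 43 in WSB/EiJ; 17 to 25, 41 to 42 and 24 to 33 for the differences; 10 to 19, 18 to 27 and 12 to 16 on the control diet; and 23 to 31, 42 to 44 and 35 to 39 on the deficient diet. With the replicate number as a block, which does not pair the arrays (correlations -0.349 to 0.0612, 1 of 12 highest with its own number), 12, 41 and 42 members were called, and 19, 42 and 27 for the differences.

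Signs changed only in results that had not passed, except Ncapd2. With quantile normalization the values were 0.04471 (Ndc80, A/J), 0.02571 (Bub3, C3H/HeJ), 0.2649 (Bub3, WSB/EiJ) and 0.1673 (Bub3, WSB/EiJ minus A/J); with median centring 0.07736 (Bub3, WSB/EiJ). Spike-in scaling gave 0.1159 (Ndc80, A/J), 0.06886 (Kif2c, A/J), 0.3314 (Bub3, C3H/HeJ), 0.9244 (Bub3, WSB/EiJ), 0.5081 (Bub3, WSB/EiJ minus A/J) and -0.06027 (Ncapd2, control diet, WSB/EiJ minus A/J). Normexp gave 0.2429 (Bub3, WSB/EiJ), 0.144 (Bub3, WSB/EiJ minus A/J) and -0.04975 (Nuf2, WSB/EiJ minus C3H/HeJ), and the median of the members fell under it to 0.257, 0.952 and 1.83 in A/J, C3H/HeJ and WSB/EiJ. The mean of probes gave -0.2254 (Mybl2, A/J) and 0.1429 (Kif2c, A/J), array weights -0.0686 (Cdc25c, A/J) and -0.03968 (Mybl2, WSB/EiJ minus C3H/HeJ), and A/J control 4 and deficient 4 left out -0.1467 (Cdc25c, A/J). With 1 array left out the A/J values ran from -0.07838 to 0.1032 (Mybl2), -0.5642 to 0.1135 (Kif2c), -0.008093 to 0.1386 (Bub3), -0.2129 to 0.7766 (Kif23), -0.0967 to 0.3102 (Cdc25c) and -0.4537 to 0.211 (Ndc80), and WSB/EiJ minus C3H/HeJ from -0.1135 to 0.6688 (Nuf2), -0.06521 to 0.1375 (Mybl2) and -0.006501 to 0.1082 (Bub3). Signal over background limits 22 of the 44 members, which were not above it on every array.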
